A study of Mus musculus with 6 samples.

Results

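The genes of catecholamine synthesis, storage, reuptake and breakdown were examined in the carotid body, a small organ beside the carotid artery that senses blood oxygen. They were Th, Ddc, Dbh, Slc18a1, Slc18a2, Cyb561, Slc6a2, Maoa and Maob, 9 of the 18193 genes that the array's annotation names by a probe set of their own. Every probe set whose annotation gives a single one of these symbols was taken, which gave 18 of 45037 probe sets. RNA came from carotid bodies of male mice, 28 days old and from the Jackson Lab, of 2 inbred strains, A/J and DBA/2J. Neither strain was treated, and no transgene or induced mutation is given for either. Each strain had 3 Affymetrix mouse arrays, and an array carried a pool of RNA. For A/J, 20, 21 and 19 mice gave 40, 42 and 38 carotid bodies, and for DBA/2J 19, 18 and 19 mice gave 38, 36 and 38. All p-values therefore measure the spread between pools, whose animals are not individually resolved, and the number of arrays limits the precision. The comparison asks which of these genes differ between the carotid bodies of the 2 strains.

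Type I (glomus) cells of the carotid body sense low oxygen in arterial blood and release transmitters, dopamine among them, from dense-core vesicles onto the endings of the carotid sinus nerve. Tyrosine hydroxylase (Th) makes L-DOPA from tyrosine and is the rate-limiting enzyme, aromatic L-amino acid decarboxylase (Ddc) makes dopamine from L-DOPA, and dopamine beta-hydroxylase (Dbh) turns dopamine into noradrenaline inside the vesicle. The vesicular monoamine transporters VMAT1 (Slc18a1) and VMAT2 (Slc18a2) load the amines into vesicles in exchange for protons, and cytochrome b561 (Cyb561) carries electrons across the vesicle membrane to renew the ascorbate that Dbh uses. The noradrenaline transporter (Slc6a2) takes released amine back into noradrenergic cells, and the monoamine oxidases A and B (Maoa, Maob) of the outer mitochondrial membrane break amines down. Maoa and Maob are adjacent genes on the X chromosome.

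Values are the deposited linear signals of each probe set, in arbitrary intensity units, and the median signal of an array lay between 163.5 and 183.1. Differences are given as the DBA/2J mean less the A/J mean of log2(signal + 16), from limma on the 27022 probe sets in the upper 60% by mean. A probe set was called at a Benjamini-Hochberg adjusted p under 0.05 over all of them. Of these, 883 were called, 3.27%, with 1.86% higher and 1.41% lower in DBA/2J. The pools also differed in the signals of cell type markers. The summed signal of 15 type I cell markers (Chga, Chgb, Scg2 and others) was 34084 to 38330 on the A/J arrays and 68553 to 74284 on the DBA/2J arrays. Of the 15, 7 were called, all higher, against 2.17% of all genes. Syp, Rgs5 and Kcnk3 overlapped between the strains. For 11 skeletal muscle markers the A/J sums were 47457 to 109169 and the DBA/2J sums 912 to 2192, and 10 of them fell. None of these values was at 0, and their part in the results was not tested. Fewer cells of a type and less RNA per cell cannot be told apart in such pools.

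The RefSeq promoter table (GRCm38.p6) held entries for 5 of the 9 genes, Th, Ddc, Dbh, Slc18a2 and Maoa. Upstream stretches of 250 bases, 5′ to 3′ on the gene's strand, are shown for Th and Slc18a2, whose signals lay higher on every DBA/2J array, and for Dbh, whose signals overlapped. Those of Ddc, also higher on every DBA/2J array, and of Maoa, which overlapped, were searched but are not shown. Capitals mark the cAMP response element TGACGTCA and the homeodomain core ATTA (TAAT on the other strand).
Th, chr7:142899996-142900245, minus strand: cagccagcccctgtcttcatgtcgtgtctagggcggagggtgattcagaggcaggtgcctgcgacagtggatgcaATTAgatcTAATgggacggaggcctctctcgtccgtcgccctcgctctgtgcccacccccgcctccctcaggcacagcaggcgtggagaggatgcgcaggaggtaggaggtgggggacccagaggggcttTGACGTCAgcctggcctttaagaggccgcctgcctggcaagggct
Slc18a2, chr19:59260628-59260877, plus strand: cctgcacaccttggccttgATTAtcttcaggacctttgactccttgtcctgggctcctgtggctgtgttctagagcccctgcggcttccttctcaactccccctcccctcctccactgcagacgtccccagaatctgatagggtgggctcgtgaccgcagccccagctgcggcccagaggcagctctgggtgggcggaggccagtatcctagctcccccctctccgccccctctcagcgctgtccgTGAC
Dbh, chr2:27165257-27165506, plus strand: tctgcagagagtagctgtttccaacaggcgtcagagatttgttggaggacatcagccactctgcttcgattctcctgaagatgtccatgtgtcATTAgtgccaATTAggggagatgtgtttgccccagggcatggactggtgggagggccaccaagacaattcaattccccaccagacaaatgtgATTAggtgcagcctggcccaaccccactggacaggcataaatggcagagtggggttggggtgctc
Motifs were searched on both strands in the full 300-base window, which ends 50 bases past the start. The cAMP response element began 45 bases before the start of Th. In Slc18a2 it began 4 bases before the start, so that the printed stretch ends within it. It was not found in these windows of Dbh, Maoa or the 2 windows of Ddc, and 1.79% of all 32851 such windows hold it. The core ATTA, which 58% of the windows hold, had 3 matches in Dbh, 2 in Th, 1 in Slc18a2, 3 and 2 in the windows of Ddc and 0 in Maoa. The core of the hypoxia response element, ACGTG, had 0 matches in all 6 windows and is in 19.6% of all windows. The E-box CANNTG, which is in 72.3%, had 2 matches in Dbh and 1 each in Th, Slc18a2 and Maoa. The AP-1 site TGANTCA, which is in 7.81%, had 1 match in Th and 1 in the first window of Ddc. The form CACGTG of the E-box contains ACGTG, which had 0 matches in these windows, so the 2 shares over all windows are not independent. Neighbouring matches can also share bases, as do 2 of the matches to ATTA in the first window of Ddc. A match is a description of the sequence and not evidence of binding.

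Of the 9 genes, Slc18a1 rose in the DBA/2J pools and the other 8 did not pass the test by their brightest probe sets. By the brightest probe set of each gene, all 3 DBA/2J arrays lay above all 3 A/J arrays for Th, Ddc, Slc18a1, Slc18a2 and Cyb561. These are 5 of the 9 genes, against 13% of the 13006 genes tested. The arrays overlapped for Dbh, Slc6a2, Maoa and Maob, and none of the 9 genes was lower on every DBA/2J array, against 9.69% of all genes. The 1 gene called in limma stands against 3.77% of all genes (2.17% higher and 1.6% lower in DBA/2J). The median log2 difference of the 9 genes was 0.44, beside 0.03 for all genes tested, and 7 of the 9 were positive. The other 4 of the 5 separated genes did not pass the adjusted threshold, at adjusted p from 0.0602 (Cyb561) to 0.195 (Slc18a2), while each had an unadjusted p under 0.05, as did 17.1% of all genes. The rule the series states asks for at least 6 of 9 array pairs changed by 1.5-fold, with an unadjusted p under 0.05. It was applied here with limma's p and with a ratio of means of at least 1.5-fold as well. The brightest probe sets of Th, Slc18a1 and Cyb561 and another probe set of Ddc passed, 4 of the 16 probe sets tested. Of all probe sets tested, 9.98% passed that rule, 5.19% higher and 4.79% lower. Over the 16 probe sets tested, 7 were higher and 0 lower on every DBA/2J array, against 11.5% and 9.54% of all probe sets. With limma's array weights, the 5 separated genes were all called, and so were 3007 of the 27022 probe sets.

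**Figure D1:**
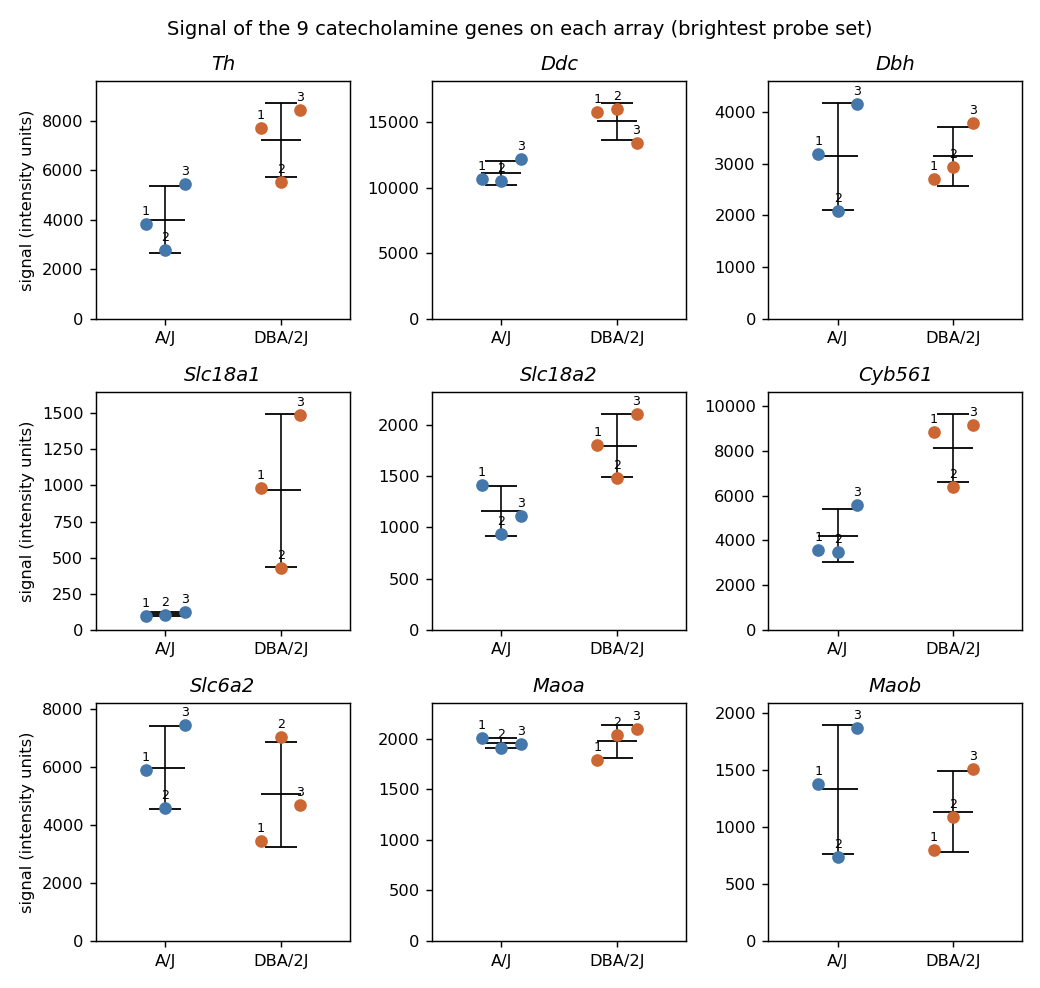
Signal of each of the 9 genes on the 6 arrays, by the brightest probe set of the gene, in linear intensity units from 0; numbers beside the points are the arrays of each strain, long ticks are means and bars are SD of 3 arrays. The DBA/2J points lie above all A/J points for Th, Ddc, Slc18a1, Slc18a2 and Cyb561, and the strains overlap for the other 4 genes.

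Of the enzymes of synthesis, Th and Ddc separated the strains and Dbh did not. Th (1420546_at) had signals of 3815.4, 2760.1 and 5427.9 on A/J arrays 1 to 3 and of 7709.7, 5535.4 and 8415.8 on DBA/2J arrays 1 to 3. The lowest DBA/2J array, array 2, stood just above the highest A/J array, array 3. The means were 4001 ± 1344 and 7220 ± 1501 (SD, n = 3 arrays), a ratio of 1.80. The log2 difference was 0.88 (SE 0.26, limma adjusted p = 0.131). It had a 95% confidence interval of 0.29 to 1.48, and when an array was left out it ran from 0.64 to 1.13 (limma adjusted p from 0.0526 to 0.376).

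Ddc had the smallest difference of the 5 by its brightest probe set (1426215_at), and a larger one by a dim probe set. The brightest read 10652.9, 10540.1 and 12175.4 in A/J and 15769.1, 15994.8 and 13427.1 in DBA/2J. The groups did not overlap, and the log2 difference was 0.44 (SE 0.14, limma adjusted p = 0.168). After quantile normalization it was 0.58 (limma adjusted p = 0.0332), and as the mean of both probe sets 1.15 (limma adjusted p = 0.00976), while with any array left out the brightest was not called (limma adjusted p from 0.1 to 0.448). The dim probe set (1430591_at) read 59.8, 126.3 and 47.8 in A/J and 270.2, 362.1 and 287.4 in DBA/2J. It rose by a log2 difference of 1.86 (SE 0.33, limma adjusted p = 0.0165). It was not called without A/J array 1 or 3 or DBA/2J array 1 or 3 (limma adjusted p = 0.0739, 0.0645, 0.0688 and 0.0570). The probe sets of Ddc thus gave unequal sizes in the same direction. No detection call was used here, and whether the A/J values of the dim probe set stand above background is unknown.

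Dbh had 3 probe sets, and on each of them the strains overlapped. The brightest (1459848_x_at) read 3188.6, 2076.8 and 4155.6 in A/J and 2699.6, 2934.4 and 3784.4 in DBA/2J. Both the lowest and the highest of the 6 values were A/J arrays, array 2 and array 3. The log2 difference was 0.04 (SE 0.26, limma adjusted p = 0.969), with a 95% confidence interval of -0.55 to 0.63. The other probe sets gave 0.32 (1450670_at, limma adjusted p = 0.776) and -0.04 (1447592_at, limma adjusted p = 0.974). The intervals still hold differences of either sign, and the direction turned without A/J array 2 (log2 difference -0.23) and without DBA/2J array 3 (-0.10).

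Of the vesicle genes, Slc18a1 had the largest log2 difference among the brightest probe sets of the 9 genes and Cyb561 the next. Slc18a1 (1426595_at) read 96.3, 103 and 124 on the A/J arrays and 981, 431.3 and 1490.2 on the DBA/2J arrays. The A/J values lay close together, and the lowest DBA/2J array, array 2, was above all of them. The means were 108 ± 14.5 and 968 ± 530 (SD, n = 3), a ratio of 8.98. Slc18a1 rose by a log2 difference of 2.83 (SE 0.39, limma adjusted p = 0.00503), with a 95% confidence interval of 1.95 to 3.71. It stayed called without each array in turn, the limma adjusted p running from 0.000242 to 0.0363. Whether these A/J values stand above background is unknown, and they lie about the level below which probe sets were left out (a mean signal near 114), so that Slc18a1 entered the test through its DBA/2J values, as did the dim probe set of Ddc. With no filter both were still called (limma adjusted p = 0.0115 and 0.0369). The other probe sets of Slc18a1 were too dim to be tested. The first (1446248_at) read 94.3, 103.5 and 78.5 in A/J and 142.5, 127.9 and 97.5 in DBA/2J, and the second (1458777_at) no more than 38.9 on any array. The strains overlapped on both, so the rise rests on a single probe set.

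Slc18a2 (1437079_at), the transporter that is also used by neurons and mast cells, read 1419, 940.5 and 1115.6 in A/J and 1809.3, 1484.6 and 2106.2 in DBA/2J. The groups did not overlap, A/J array 1 lying just below DBA/2J array 2. The log2 difference was 0.63 (SE 0.22, limma adjusted p = 0.195). Mast cells were followed by 9 marker genes. They summed to 5126 to 5326 on the A/J arrays and to 7394 to 11328 on the DBA/2J arrays, with no value at 0. Of the 9, Cma1 rose (log2 difference 1.44, limma adjusted p = 0.0140), Hdc fell (-1.70, limma adjusted p = 0.0366) and 7 did not pass. Their part in the Slc18a2 values was not tested.

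Cyb561 (1417507_at) read 3556.5, 3491 and 5582 in A/J and 8873, 6394.1 and 9174.4 in DBA/2J. A/J array 3 and DBA/2J array 2 were the nearest across strains, and the groups did not overlap. The means were 4210 ± 1189 and 8147 ± 1526 (SD, n = 3), a ratio of 1.94, and the log2 difference was 0.97 (SE 0.23). The limma adjusted p was 0.0602 over all probe sets and 0.0446 where limma was fitted to 1 probe set per gene, where 4.48% of genes were called (2.57% higher, 1.91% lower). It was under the threshold without A/J array 3 (limma adjusted p = 0.0471) and without DBA/2J array 2 (0.0238), but not without A/J array 1 or 2 (0.208 and 0.167), without DBA/2J array 1 or 3 (0.238 and 0.162) or with no filter (0.103). Over the left-out arrays the log2 difference ran from 0.85 to 1.19.

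The genes of reuptake and breakdown did not differ beyond the spread between arrays. Slc6a2 had 4 probe sets of very unequal signal. The brightest (1460129_at) read 5900.9, 4597 and 7467 in A/J and 3445.9, 7036.3 and 4713.8 in DBA/2J, with the groups interleaved and a log2 difference of -0.27 (SE 0.28, limma adjusted p = 0.726). The 3 others read from 88.7 to 294.3, and their log2 differences were 0.12, 0.34 and 0.53 (limma adjusted p from 0.388 to 0.841). On 1 of them (1447311_at) the DBA/2J arrays, at 279.8 to 294.3, were all above the A/J arrays. The probe sets of Slc6a2 thus differed in sign, and their mean gave 0.18 (limma adjusted p = 0.713).

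Maoa (1428667_at) was the steadiest of the 9 genes across the 6 arrays, at 2011.2, 1912.8 and 1950.5 in A/J and 1792.5, 2035.3 and 2097.7 in DBA/2J. Its log2 difference was 0.01 (SE 0.17, limma adjusted p = 0.988), with a 95% confidence interval of -0.36 to 0.38. The estimates for Th (0.88) and Cyb561 (0.97) lie outside it. The interval of Th (0.29 to 1.48) overlaps it, and that of Cyb561 (0.45 to 1.49) does not. Maoa was not tested against either gene. Another probe set (1442676_at) gave -0.10 (limma adjusted p = 0.879). Maob (1434354_at) varied far more, at 1379.6, 737.6 and 1866.7 in A/J and 799.8, 1090.3 and 1508.4 in DBA/2J. The highest and the lowest value were both A/J arrays, and the log2 difference was -0.18 (SE 0.35, limma adjusted p = 0.880). Its interval of -0.97 to 0.62 leaves room for a change of either sign. The direction was not stable for these genes. That of Maob turned without A/J array 3 (0.12) or DBA/2J array 1 (0.05). That of Maoa turned, to values between -0.035 and -0.0072, without A/J array 2 or DBA/2J array 2 or 3.

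**Figure D2:**
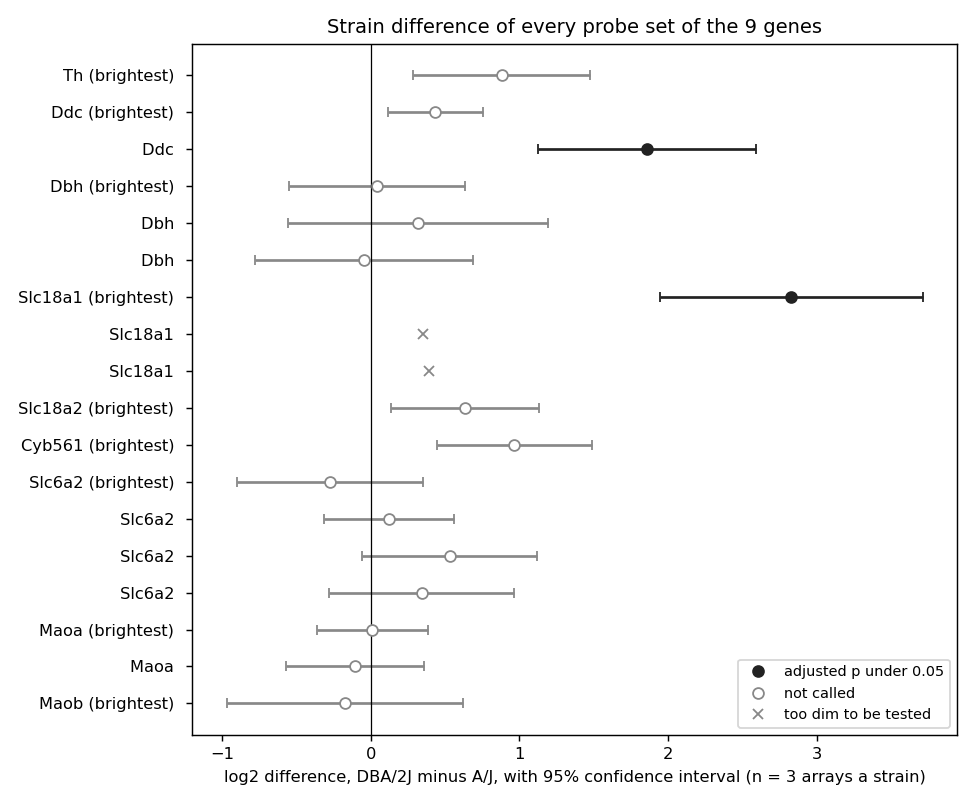
Log2 difference of every probe set of the 9 genes, positive where DBA/2J is higher, with 95% confidence intervals from limma (3 arrays a strain); filled points were called, open points were not, and crosses without intervals are the 2 probe sets of Slc18a1 too dim to be tested. The called probe sets are that of Slc18a1 at 2.83 and the dim one of Ddc at 1.86, and the intervals of all probe sets of Dbh, Slc6a2, Maoa and Maob include 0.

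Differences between pairs of genes were compared within each array, for 4 pairs. The log2 value of Slc18a1 less that of Slc18a2 was -3.68, -3.01 and -3.01 on the A/J arrays and -0.87, -1.75 and -0.49 on the DBA/2J arrays, a shift of 2.19 (SE 0.43). Th less Dbh was 0.26, 0.41 and 0.38 in A/J and 1.51, 0.91 and 1.15 in DBA/2J, a shift of 0.84 (SE 0.18). These 2 shifts separated the strains on every array, with the smallest p that 3 against 3 arrays allow (exact two-sided permutation p = 0.1, adjusted p = 0.2 over the 4 pairs). Th less Ddc shifted by 0.45 (SE 0.33, exact permutation p = 0.3) and Maoa less Maob by 0.18 (SE 0.43, exact permutation p = 0.8), with the strains overlapping. No pair could reach 0.05 in this design. Such within-array differences do not compare the levels of the genes. Whether the A/J values of Slc18a1 stand above background is unknown, so the size of the shift against Slc18a2 is uncertain.

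Set against the type I cell markers, Slc18a1 was higher on every DBA/2J array, 5 of the genes were lower on every one and 3 overlapped. The mean log2 value of the 15 markers was 10.27 to 10.46 on the A/J arrays and 11.43 to 11.50 on the DBA/2J arrays, and 7 of the 15 rose. The list was chosen with earlier results of these data known, so its direction is not independent evidence. Because the marker mean was higher in DBA/2J, a gene without a strain difference lies lower against it. This holds for Dbh and Maoa, whose own log2 differences were 0.04 and 0.01. A lower relative value thus does not by itself mean a fall in signal. The share of all genes that lie lower in this way was not counted. Relative to that mean, Slc18a1 was higher in DBA/2J by 1.75 (SE 0.51), with A/J values that may not stand above background. Th and Cyb561 had relative differences of -0.20 (SE 0.35) and -0.11 (SE 0.27), and Slc18a2 of -0.44 (SE 0.26) with arrays that overlapped. Ddc, Dbh, Maoa, Maob and Slc6a2 were lower relative to the markers, by 0.64, 1.04, 1.07, 1.25 and 1.35 on the log2 scale. For Slc18a1 and these 5 genes the exact two-sided permutation p was 0.1, the smallest possible, and 0.15 adjusted over the 9 genes. For the 5 lower genes this p cannot tell a change in the gene from the higher marker mean, and no conclusion is drawn from it.

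**Figure D3:**
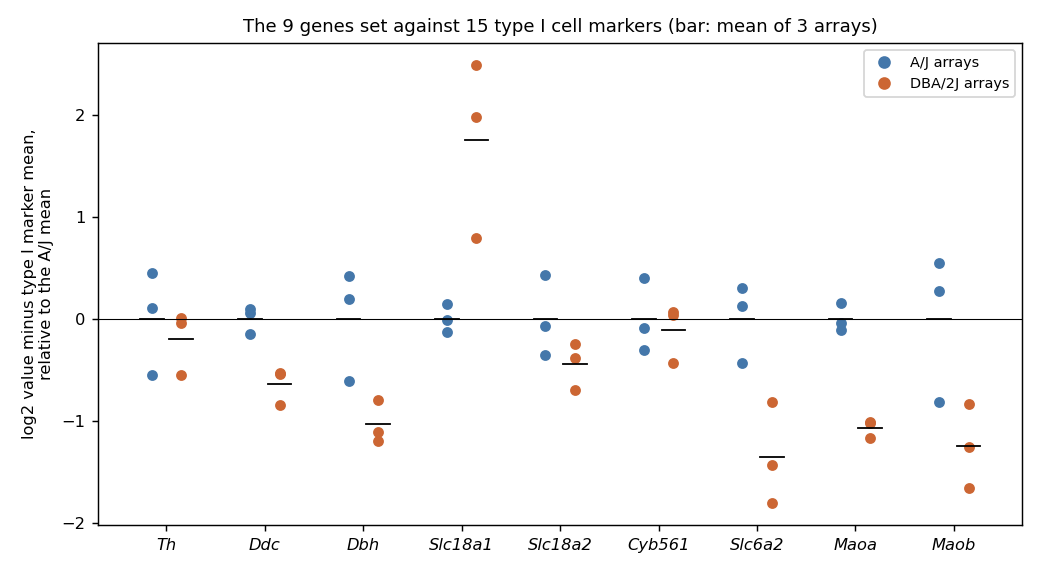
Log2 value of each of the 9 genes less the mean log2 value of 15 type I cell markers on the same array, shown relative to the A/J mean of each gene (blue, A/J arrays; orange, DBA/2J arrays; black bars, means of 3 arrays). Slc18a1 lies 1.75 higher in DBA/2J, Th and Cyb561 overlap between strains, and Ddc, Dbh, Slc6a2, Maoa and Maob lie lower on every DBA/2J array. The marker mean was itself higher on the DBA/2J arrays, so genes without a strain difference lie lower here.

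Sympathetic neurons, whose ganglion lies beside the carotid body, also make Th, Dbh, Slc18a2 and Slc6a2. The summed signal of 9 ganglion neuron markers (Prph, Npy, Stmn2 and others) ran from 10747 to 19647 on the A/J arrays and from 15640 to 18878 on the DBA/2J arrays. None of the 9 was called or at 0, and their median log2 difference was 0.07. The markers did not move together. Uchl1 was higher on every DBA/2J array (log2 difference 1.01, limma adjusted p = 0.0621). Nefm was lower on every one (-1.18, limma adjusted p = 0.127), and the others overlapped. Among the A/J arrays, this sum was lowest on array 2 (10747) and highest on array 3 (19647). Of the 9 genes, 6 had their lowest and highest A/J values on the same 2 arrays (Th, Ddc, Dbh, Cyb561, Slc6a2 and Maob). The share of all genes with this order was not counted. On the DBA/2J arrays the sum was highest on array 2 (18878) and lowest on array 3 (15640). There Ddc had the same order, while Th and Cyb561 were highest on array 3 and lowest on array 2. Dbh, Slc6a2 and Maob were lowest on DBA/2J array 1, and Slc6a2 was highest on array 2, as was the sum, but Dbh and Maob on array 3. The part of ganglion RNA in these values was not tested. Glial marker genes, 7 in number, summed to between 22887 and 25263 on the A/J arrays and between 15286 and 18440 on the DBA/2J arrays. Those of adipocytes, also 7, summed to 48183 to 69389 and 24927 to 40880. None of these markers was at 0, and their part in the differences above was not tested either.

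Of 31 genes fixed for cofactor synthesis, uptake, breakdown and co-substrate supply, 24 were tested. By the brightest probe set, 2 of these rose, 2 fell and 20 did not pass, against 3.77% of all genes called. Their median log2 difference was -0.02, beside 0.03 for all genes. Slc29a4 and Aldh2, named after their values were seen, did not pass (0.38 each) but had other probe sets called. That of Slc29a4 gave 1.44 (limma adjusted p = 0.0170). Those of Aldh2 gave -1.34 and -1.31 (limma adjusted p = 0.0388 and 0.0252). Further Aldh2 probe sets, at 0.43 and 1.26, did not pass (limma adjusted p = 0.330 and 0.0883). Among the genes of the tetrahydrobiopterin cofactor, Gch1 and Pcbd1 rose, while Pts (-0.24), Qdpr (-0.27), Spr (0.06) and Pcbd2 (0.21) did not pass (limma adjusted p from 0.441 to 0.955) and are named after their values were seen. Gch1, GTP cyclohydrolase, which makes the first and rate-limiting step towards the tetrahydrobiopterin that Th needs, read 616.5, 799.8 and 589.2 in A/J and 2304, 1393.9 and 2919.1 in DBA/2J. It rose by a log2 difference of 1.65 (limma adjusted p = 0.0144), and another probe set gave 1.00 (limma adjusted p = 0.0640). Pcbd1, which helps to recycle that cofactor, rose by 1.15 (limma adjusted p = 0.0379, and 0.0580 with no filter), from 2224 ± 672 to 4799 ± 537 (SD, n = 3). The feedback regulator of Gch1, Gchfr, named after its values were seen, read 375.4, 205.1 and 321.9 in A/J and 155.2, 204.6 and 119.9 in DBA/2J (log2 difference -0.84, limma adjusted p = 0.191).

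Aldh1a1, an aldehyde dehydrogenase that acts on retinal and on the aldehyde formed from dopamine, fell by 1.40 on the log2 scale (limma adjusted p = 0.0104). It read 4796.2, 2775.7 and 3744.7 in A/J and 1365.5, 1511.4 and 1284.7 in DBA/2J. Moxd1, a monooxygenase related in sequence to Dbh, fell by 1.20 (limma adjusted p = 0.0173), from 1239 ± 187 to 531 ± 91.0 (SD, n = 3). The count of 4 called genes was 3, 2 and 0 without A/J arrays 1, 2 and 3, and 0, 4 and 2 without DBA/2J arrays 1, 2 and 3. Pnmt, which makes adrenaline from noradrenaline, read 113.9, 117.1 and 271.1 in A/J and 297.8, 213.6 and 122.2 in DBA/2J (log2 difference 0.33, limma adjusted p = 0.770). The dopamine transporter Slc6a3 read 127.2, 141.9 and 120.8 in A/J and 182.5, 198.8 and 136.7 in DBA/2J (log2 difference 0.36, limma adjusted p = 0.560). Both were dim and overlapped between strains.

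The vesicle proton pump, the V-ATPase that builds the gradient on which the vesicular monoamine transporters run, did not pass by any of 16 subunits tested with limma. At an unadjusted p under 0.05 there were 2 subunits, near the 17.1% of all genes, and 2 were called with array weights, which called 3007 of the 27022 probe sets. Log2 differences ran from -0.10 to 0.71 with a median of 0.21, beside 0.03 for all genes, and 14 were positive. On every DBA/2J array 3 subunits were higher and 0 lower, against 13% and 9.69% of all genes. Atp6v1b2, a neighbour of Slc18a1 on chromosome 8, read 5732, 3699.7 and 5898.4 in A/J and 7089.6, 5989 and 7418.8 in DBA/2J. Its log2 difference was 0.44 (limma adjusted p = 0.367). It was named for its position after its values were seen. The neighbour of Slc18a1 on the other side, Lpl, is not described here.

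Of 13 transcription factors fixed as regulators of catecholamine genes, 10 were tested, 4 rose and 0 fell, against 2.17% of all genes higher and 1.6% lower. Their median log2 difference was 0.51, beside 0.03 for all genes. Only Insm1 of the 4 stayed called when any array was left out. Insm1, a zinc finger factor of neuroendocrine cells, rose by 2.93 (limma adjusted p = 0.000999). It also stands in the type I cell marker list. Phox2a, a homeodomain factor of noradrenergic cells that acts on the Dbh promoter, rose by 1.89 (limma adjusted p = 0.0496). Hand2, which acts with it, rose by 1.71 (limma adjusted p = 0.0240), and Epas1, a transcription factor that accumulates in low oxygen, by 0.70 (limma adjusted p = 0.0381). Phox2a lost its call in 13 of 18 alternatives, among them quantile normalization (limma adjusted p = 0.0653), no filter (0.0805) and array weights (0.0680). Epas1 lost its call in 10 of 18, among them no filter (limma adjusted p = 0.106) and each left-out array (0.0598 to 0.151). Hand2 lost its call in 5 of 18, with a highest limma adjusted p of 0.123 when an array was left out. The count of 4 fell to between 1 and 3 when any array was left out. Creb1, the factor of the cAMP response element shown above and named for it, read 2385.7, 2418.2 and 2482.9 in A/J and 2385.4, 2033.5 and 2714.4 in DBA/2J (log2 difference -0.04, limma adjusted p = 0.949).

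**Figure D4:**
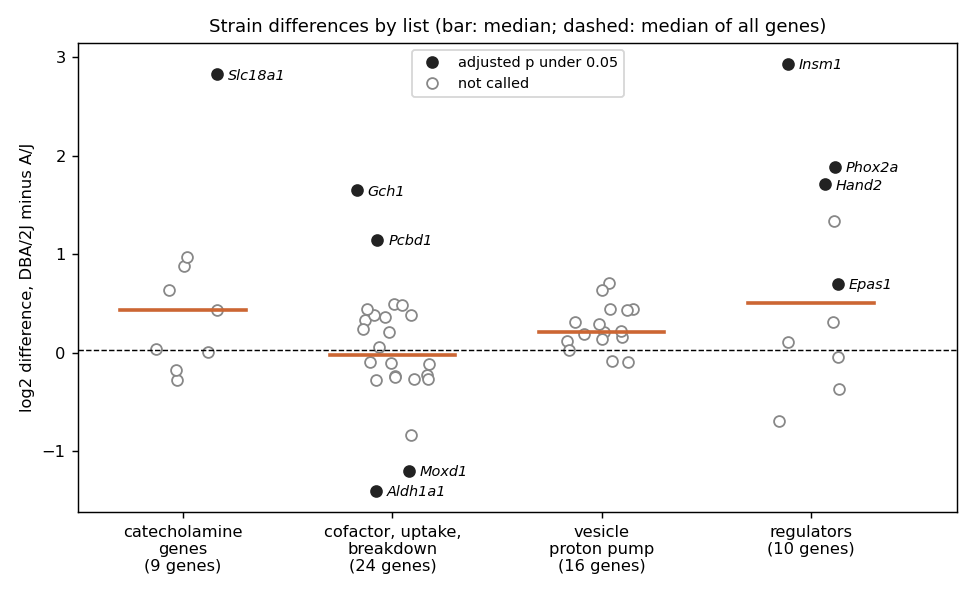
Log2 difference, DBA/2J minus A/J, of each tested gene of the 9 catecholamine genes and of the 3 lists around them, by the brightest probe set; filled points were called, orange bars are list medians and the dashed line is the median of all genes tested (0.03). The list medians are 0.44, -0.02, 0.21 and 0.51 from left to right, and the called genes are named.

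The genes most like a given gene across the 6 arrays were found by the root mean square distance of their centred log2 values, over 13005 other genes. For Th these were Layn (distance 0.08), Zfpm2 (0.12) and Tmem209 (0.12), and Cyb561 was the fifth nearest of all (0.14), with Slc18a2 at rank 191. For Slc18a1 they were Cdh9 (0.39), Nt5dc2 (0.41) and 6330403K07Rik (0.43), none of the other 8 genes being nearer than rank 251. For Dbh they were Pde12 (0.09), Pid1 (0.09) and Praf2 (0.10), with Maob at rank 136. For Maoa, whose own pattern is nearly flat, they were Bag4 (0.03), Bmpr2 (0.04) and Shc2 (0.04). These distances describe 6 arrays that share strain and pool, and they carry no test.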

How the data were processed

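Total RNA of pooled carotid bodies was extracted with Trizol and labelled by a small-sample protocol with repeated cDNA synthesis and transcription, per the labels' protocols. Priming by oligo(dT) in repeated rounds can weaken probe sets far from the 3′ end. The deposited values are linear intensity signals, 0.1 to 27051.1. The software and scaling the authors used were not given in the sources used here. No detection call was used.

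Probe sets were named from the platform annotation, updated by gene identifier with a RefSeq table (GRCm38.p6): of 45101 probe sets, 34958 name 1 gene (34754 matched), 932 several and 9211 none. Leaving out 64 control probe sets, log2(signal + 16) was taken, the upper 60% by mean kept, and DBA/2J minus A/J fitted with limma 3.58.1 (R 4.3.3) with an intensity trend, two-sided, adjusted by Benjamini-Hochberg over all kept probe sets. The brightest probe set stood for a gene. Within-array differences used an exact permutation test (scipy 1.17.1). The fit was tested on simulated data.

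All 9 genes are described. In the 3 lists around them, up to 6 called genes with the smallest adjusted p are named, and Gch1, Pnmt and Slc6a3 always; 1 further gene is not reported here. The 3 genes nearest in pattern are named for each of Th, Slc18a1, Dbh and Maoa. Lists, genes and tests were chosen with earlier results of these data known. The alternatives were other normalizations, pseudocounts, filters and variance models, the mean of a gene's probe sets, leaving out each array, a block by a number shared in some titles and, added after seeing the data, a fit on 1 probe set per gene.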

Additional observations from a re-analysis of the deposited data

How the results depend on the processing

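Slc18a1 kept its direction in every alternative run, with log2 differences of 2.44 to 3.31, and lost its call in 1 of them, the fixed block. The count of 1 called gene among the 9 was 3 after quantile normalization, 5 with array weights, 2 with the mean of a gene's probe sets, 2 with the fit on 1 probe set per gene and 1 to 2 when an array was left out. The count of 2 called probe sets was 4 after quantile normalization, 6 with array weights, 1 in the upper 40% of probe sets, 4 by the series' stated rule and 1 to 3 when an array was left out. The 883 probe sets called in all were 3007 with array weights and 341 to 1351 when an array was left out. The 4 called genes around the 9 were 0 to 4 when an array was left out, and proton pump genes called rose from 0 to 2 with array weights. The 4 called regulators were 2 with no filter, 2 with no intensity trend, 0 with the fixed block and 1 to 3 when an array was left out.

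A number at the end of the titles is shared by 2 arrays of each strain, and the labels do not say what it marks. For arrays that share it, deviations from the strain means had correlations of -0.26 and 0.035. Other pairs across the strains had -0.26 to 0.20. With 2 such pairs, these values cannot settle whether the number marks a batch. With it as a fixed block, which leaves 1 residual degree of freedom, 0 probe sets were called, 0 of the 9 genes, 0 of their probe sets and 0 genes around them. With it as a random block, 848 probe sets were called, Slc18a1 among them. Direction turned only for differences that were not called. Under the fixed block this was so for Maob (0.12), 1447592_at of Dbh (0.29) and Pnmt (-0.13). With array weights it was so for Dbh (-0.21), 1450670_at of Dbh (-0.12), Maoa (-0.078) and 1442676_at of Maoa (0.063). The mean of a gene's probe sets turned Slc6a2 (0.18) and Maoa (-0.047), and scaling to one median turned Maoa (-0.0032). Leaving out an array turned Dbh (-0.23 to 0.27), 1450670_at (-0.12 to 0.70), 1447592_at (-0.45 to 0.19), Maoa (-0.035 to 0.077), 1442676_at (-0.22 to 0.049) and Maob (-0.54 to 0.12). The cause of these changes was not tested. Without detection calls, how far dim probe sets stand above background is unknown.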
